A study of Mus musculus with 8 samples.

Results

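Complex I of the respiratory chain was followed through the 43 mouse genes whose symbol starts with Nduf, out of 19938 genes measured, in the gastrocnemius of Hdac5 knockout mice and their wild type littermates. The series asked how HDAC5, a class IIa histone deacetylase, bears on Il6 transcription and on genes under IL-6 control. The genes were chosen by name, with earlier results of these data known. A probe set had to carry a single gene symbol in the platform annotation. Where a gene had 2 such probe sets the brighter was used. Of 51 probe sets with an Nduf symbol, 48 carried a single symbol and 3 carried several. The 4 knockout and 4 wild type samples came from mice aged 30 weeks on a low-fat chow with no further treatment, and 150 ng of total RNA with an integrity number above 8 was labelled for each array. The labels cite a published Hdac5 knockout line and name no tissue-specific driver. They do not say that each sample was a separate animal, so the p-values reflect only variation among these samples, which may be technical. In whole muscle, fewer cells of a type and less RNA per cell cannot be told apart.

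Complex I, the NADH:ubiquinone oxidoreductase, takes electrons from NADH at the tip of an arm that reaches into the mitochondrial matrix, passes them along iron-sulfur clusters to ubiquinone, and pumps protons through an arm buried in the inner membrane. Its catalytic core is split between nuclear genes, which encode the matrix arm core, and mitochondrial DNA, which encodes the core of the membrane arm. Accessory subunits surround both arms, and assembly factors help to build the complex without staying in it. Muscle fibres with slow, oxidative metabolism are rich in it. HDAC5 holds back transcription driven by MEF2 factors in muscle.

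The Nduf genes fell into 6 role groups taken from textbook knowledge. The matrix arm core held 6 measured genes (Ndufs1, Ndufs3, Ndufs7, Ndufs8, Ndufv1 and Ndufv2). The matrix arm accessory group held 9 (Ndufa2, Ndufa5, Ndufa6, Ndufa7, Ndufa9, Ndufa12, Ndufs4, Ndufs6 and Ndufv3), and the membrane arm accessory group 18 (Ndufa1, Ndufa3, Ndufa8, Ndufa10, Ndufa11, Ndufa13, Ndufb2, Ndufb3, Ndufb5 to Ndufb11, Ndufc1, Ndufc2 and Ndufs5). Ndufab1, the mitochondrial acyl carrier protein, sits in both arms. The assembly factors Ndufaf1 to Ndufaf7 made a group of 7. Ndufa4, now placed in cytochrome c oxidase, and its hypoxia-induced paralogue Ndufa4l2 were kept as a group outside the complex. Ndufb1, Ndufb4 and Ndufaf8 had no single-symbol probe set and were not analysed here as members.

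Stretches of promoter are shown first, because the 43 genes were chosen by name and the start of the gene is a feature the choice did not use. RefSeq promoter windows of GRCm38.p6 (250 bases before and 50 after the gene start) were found for 38 of the 43 genes, in 40 windows. Ndufa2, Ndufa4l2, Ndufaf6, Ndufb9 and Ndufs1 were not matched. The letters AAGATGGC, known as a YY1 motif, were searched on both strands and stood in 7 of the 40 windows (17.5%), against 2.75% of all 32851 windows. The 7 matches lay on the strand of the gene and began 23 to 39 bases into it, counting the first base as 1. Of the 927 matches in all windows, 30.6% lay both on the gene's strand and after the start. The 30 bases around each match are shown 5′ to 3′ on the gene's strand, with the motif in capitals; it contains an ATG, and whether that ATG is the start codon was not tested.
Ndufc1 (chr3:51408915-51408944, minus strand): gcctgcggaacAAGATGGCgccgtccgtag
Ndufa3 (chr7:3617384-3617413, plus strand): ccgccaagaacAAGATGGCcgggagtaagt
Ndufs7 (chr10:80249462-80249491, plus strand): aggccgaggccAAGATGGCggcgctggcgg
Ndufa9 (chr6:126849097-126849126, minus strand): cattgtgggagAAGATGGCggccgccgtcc
Ndufs6 (chr13:73328433-73328462, minus strand): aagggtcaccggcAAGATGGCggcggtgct
Ndufs4 (chr13:114388045-114388074, minus strand): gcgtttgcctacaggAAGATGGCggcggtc
Ndufb8 (chr19:44555393-44555422, minus strand): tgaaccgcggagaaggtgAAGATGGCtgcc

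The same letters followed by GGC stood in 4 of the 40 windows (Ndufa9, Ndufs4, Ndufs6 and Ndufs7) against 0.633% of all windows. A 10-base NRF1 motif, read with any base at the fifth position, stood in 9 of the 40 windows (22.5%) against 4.60% of all, in 8 genes: Ndufa5, Ndufa6, Ndufa8, Ndufa11, Ndufaf4, Ndufaf5, Ndufs5 and Ndufs6. Its palindromic form, with A there, stood in 3 windows against 0.971% of all, and the shorter GCATGCGC, which overlaps both, in 5 (12.5% against 2.71%). The 3 palindromic matches are shown with Ndufs5, which is described by sample later, and the capitals mark the 10 bases. The Ndufs5 match lies on the other strand, so its capitals are the reverse complement of the motif and the free base stands at the sixth place as printed.
Ndufa11 (chr17:56717692-56717721, plus strand): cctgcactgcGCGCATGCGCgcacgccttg
Ndufaf4 (chr4:24897960-24897989, plus strand): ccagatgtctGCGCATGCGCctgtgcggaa
Ndufaf5 (chr2:140170652-140170681, plus strand): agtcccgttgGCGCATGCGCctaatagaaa
Ndufs5 (chr4:123718265-123718294, minus strand): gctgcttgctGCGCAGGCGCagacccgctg

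For GABP, an ETS family factor, the picture depended on the length of the string. The core CGGAAG stood in 13 windows (32.5% against 16.9% of all), while the longer CCGGAAGT, which contains it, stood in 1 (2.50% against 3.89%). For the oestrogen-related receptors, AAGGTCA stood in 2 windows (5.00% against 4.72%) and TCAAGGTCA, which contains it, in 0 (0.423% of all). A 10-base MEF2 motif stood in 0 of the 40 windows (0.402% of all). A match is a description of letters in a window of 300 bases, and a missing match says nothing about a factor. For every string searched, the share over all windows was taken without matching for base composition or signal.

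No Nduf gene passed the threshold for a genotype difference. At a limma adjusted p under 0.05 over all genes, 0 of the 43 passed, where 13 genes (0.0652%) passed among all 19938. The smallest adjusted p was 0.440 in limma, and at an unadjusted p under 0.05, 4 members were lower and 1 was higher in knockout muscle. Differences ran from -0.24 for Ndufb3 to 0.14 for Ndufaf7 on the log2 scale (knockout minus wild type). The 95% intervals of all 43 lay between -0.42 and 0.29, which bounds the differences these samples allow. In simulated data with each gene's own spread, the same fit and threshold recovered 22.2% of planted differences of 0.25 and 78.8% of those of 0.5. The planted genes were drawn at random from all genes, and more were planted in a run than passed here. The rates are therefore not those of the Nduf genes. Differences as small as those seen here could still be missed.

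Small differences leaned downward among the Nduf genes as a whole. Of the 43, 29 had the lower mean in the knockout samples and 14 the higher, with a median difference of -0.05; over all genes 48.6% were lower and the median was 0.0030. The 4 members lower at an unadjusted p under 0.05 in limma are 9.30% of the 43, beside 3.18% of all genes; the 1 higher is 2.33%, beside 4.72%. In 4 members every knockout sample lay below every wild type sample (9.30%, beside 1.99% of all genes), and in 0 did every knockout sample lie above (2.91% of all genes). The Nduf genes are bright on the array: 30 of them lay in the top decile of genes by mean signal, where 5.12% of all genes had that full separation and the median difference was 0.011. In that decile, 21 of the 30 members had a lower mean, with a median of -0.04, while 44.2% of all its genes did.

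These counts moved with single samples. The number lower at an unadjusted p under 0.05 was 2 when the third knockout or the third wild type sample was dropped, and the number higher was 0 without any of knockout samples 1, 2 and 3 or wild type samples 2, 3 and 4. The number with full separation was 7 on dropping knockout sample 1 and 9 on dropping wild type sample 2. Fewer samples make full separation easier, and the share of all genes under these settings is not given here. The median difference was -0.02 without knockout sample 4.

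**Figure D1:**
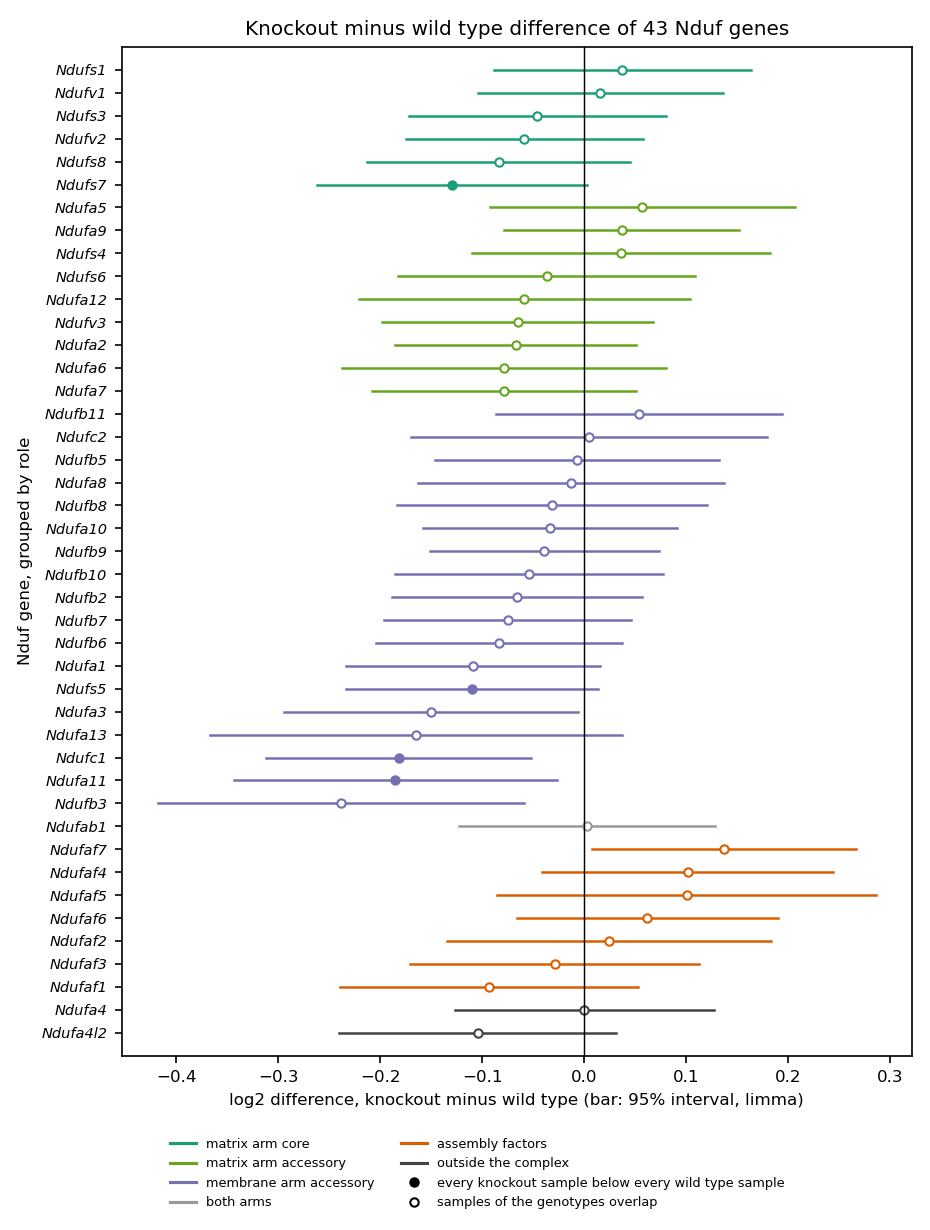
Each row is an Nduf gene, the circle its log2 difference (knockout minus wild type, 4 samples each) and the bar limma's 95% interval, coloured by role; filled circles mark genes in which every knockout sample lay below every wild type sample. Most membrane arm circles lie left of 0, with Ndufb3 at -0.24 farthest, and the assembly factors lie mostly right of 0, with Ndufaf7 at 0.14 farthest.

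Among the larger role groups of Nduf genes, the membrane arm accessory subunits gave the most one-sided picture. Of the 18, 16 had a lower knockout mean (88.9%, beside 48.6% of all genes), with a median difference of -0.07. At an unadjusted p under 0.05 in limma, 4 were lower (22.2%, beside 3.18% of all genes). The counts and median of this group were added after seeing the data. Their mean log2 signal was 11.74, 11.72, 11.74 and 11.68 in knockout samples 1 to 4 and 11.82, 11.80, 11.83 and 11.76 in wild type samples 1 to 4. The highest knockout sample lay below the lowest wild type sample, so the genotypes did not overlap. With any 1 sample left out, 15 to 17 of the 18 had a lower mean, and with each array centred on its own median 14 did. No member passed over all genes in limma, so no gene of this group is reported as changed. The lean was not particular to this arm: complex IV, described below, had 13 of 14 genes lower (92.9%).

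Ndufc1, a small membrane arm subunit, had the smallest p of the 43. Its log2 signal was 12.28, 12.36, 12.34 and 12.24 in the knockout samples and 12.51, 12.41, 12.45 and 12.58 in the wild type samples. Every knockout sample was lower than every wild type sample. The difference was -0.18 (SE 0.060), a signal 0.881 of wild type, with a limma adjusted p of 0.440 (unadjusted p = 0.0100) and an exact 2-sided permutation p of 0.0286, the lowest value this design allows. Its other probe set differed by -0.15, and its samples overlapped. There knockout samples 2 and 3 (12.07 and 12.09) lay above wild type sample 2 (12.05).

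Ndufb3, a membrane arm subunit that is mutated in some inherited complex I deficiencies, had the largest difference. Its log2 signal was 9.83, 10.07, 9.93 and 9.92 in knockout and 10.10, 10.07, 10.41 and 10.13 in wild type samples. Knockout sample 2 lay level with wild type sample 2, and wild type sample 3 was the highest of all. The difference was -0.24 (SE 0.082), a signal 0.847 of wild type (limma adjusted p = 0.461, exact permutation p = 0.0571). Without wild type sample 3 it was -0.16.

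Ndufa11, a membrane arm subunit near the contact with complex III in supercomplexes, followed. Its log2 signal was 11.43, 11.53, 11.49 and 11.55 in knockout and 11.61, 11.68, 11.88 and 11.57 in wild type samples. The genotypes did not overlap, though knockout sample 4 and wild type sample 4 were close. The difference was -0.19 (SE 0.073), with a limma adjusted p of 0.532 and an exact permutation p of 0.0286, and its second probe set differed by -0.21. Without wild type sample 3, the highest here too, the difference was -0.12.

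Ndufa3 and Ndufa1, small membrane arm subunits with a single membrane span, had overlapping samples. The log2 signal of Ndufa3 was 12.30, 12.25, 12.18 and 12.14 in knockout and 12.45, 12.24, 12.45 and 12.34 in wild type samples, a difference of -0.15 (SE 0.066, limma adjusted p = 0.609, exact permutation p = 0.0857). That of Ndufa1, an X-linked gene, was 11.43, 11.36, 11.32 and 11.30 against 11.51, 11.39, 11.50 and 11.44, a difference of -0.11 (SE 0.057, limma adjusted p = 0.689, exact permutation p = 0.0571). In both genes wild type sample 2 was the lowest wild type sample and lay below knockout sample 1. After removal of the genotype means these 2 genes followed each other closely across the 8 samples (r = 0.970).

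Ndufs5, on the intermembrane space side of the membrane arm, was lower in every knockout sample by a narrow margin. Its log2 signal was 12.22, 12.22, 12.24 and 12.11 in knockout and 12.35, 12.34, 12.25 and 12.28 in wild type samples, with knockout sample 3 just under wild type sample 3. The difference was -0.11 (SE 0.057, limma adjusted p = 0.682, exact permutation p = 0.0286). A probe set shared with the pseudogene Ndufs5-ps, and so not counted as Ndufs5, differed by -0.0041. Which of these probe sets follows the functional gene was not tested.

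The rest of the membrane arm differed less, except Ndufa13. Ndufa13, also known as GRIM-19, had a difference of -0.16 (SE 0.093) with a wide wild type spread, since wild type sample 4 at 10.70 lay below all 4 knockout samples. The other 11 genes ran from -0.08 for Ndufb6 to 0.05 for Ndufb11, the highest of the group. Ndufb11, X-linked like Ndufa1, and Ndufc2 were the 2 with a higher mean. The second probe set of Ndufb11 differed by 0.13.

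**Figure D2:**
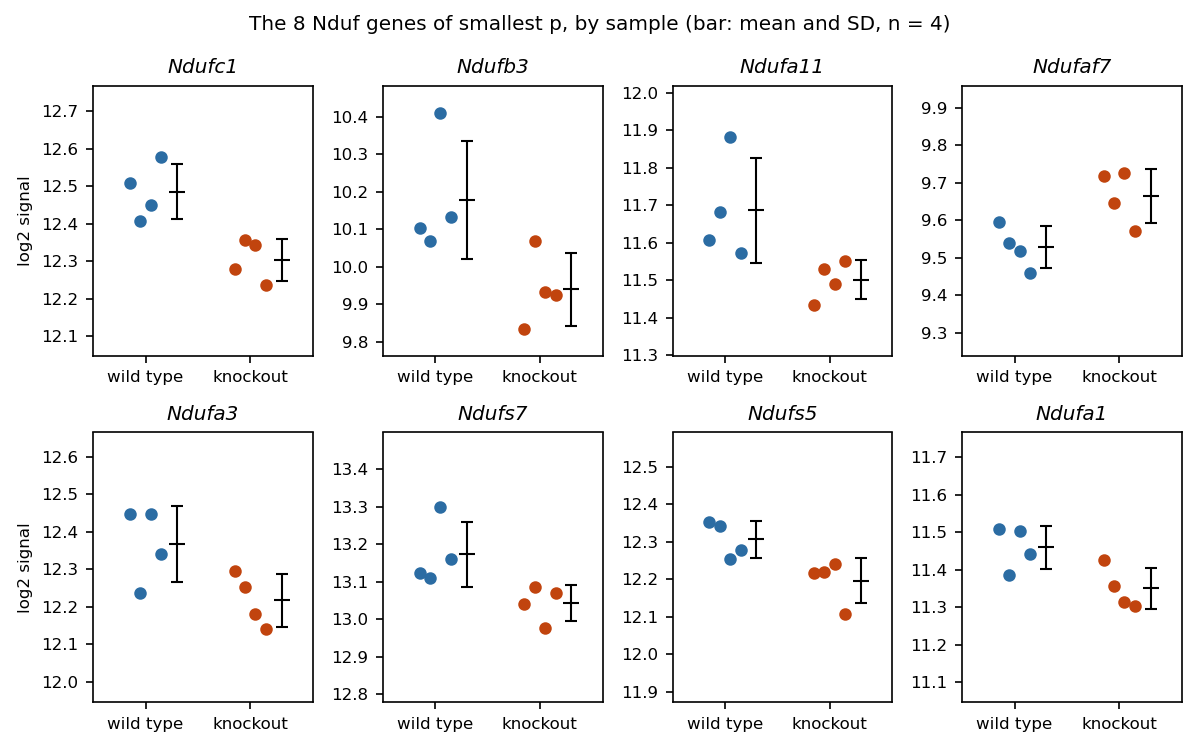
Points are single samples on the log2 signal scale (4 wild type, 4 knockout) for the 8 Nduf genes of smallest p, and the bar beside each group is its mean and SD; every panel spans the same log2 range. Ndufc1, Ndufa11, Ndufs7 and Ndufs5 show no overlap between genotypes, and Ndufaf7 is the gene with the higher knockout mean.

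The matrix arm core leaned less. Of its 6 genes 4 had a lower mean, with a median difference of -0.05 and 0 at an unadjusted p under 0.05 in limma. Ndufs7, which holds the last iron-sulfur cluster before ubiquinone, had log2 signals of 13.04, 13.09, 12.98 and 13.07 in knockout and 13.12, 13.11, 13.30 and 13.16 in wild type samples. All 4 knockout samples lay below the wild type samples, with a difference of -0.13 (SE 0.061, limma adjusted p = 0.643, exact permutation p = 0.0286). Ndufs1, the large iron-sulfur subunit of the NADH end, was the highest of the group at 0.04 (SE 0.058), and Ndufv1, which binds NADH and its flavin, was at 0.02. Ndufs8 and Ndufs3, both of the quinone-binding part, varied together most closely of all 903 member pairs once the genotype means were removed (r = 0.992 over 8 samples, a description only). Both had their lowest signal in knockout sample 1.

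The matrix arm accessory subunits overlapped between genotypes. Of 9 genes 6 had a lower mean, the median difference was -0.06, and 0 reached an unadjusted p under 0.05 in limma. Ndufa7 was lowest at -0.08 (SE 0.059) and Ndufa5 highest at 0.06 (SE 0.069). Their mean signal lay at 11.46 to 11.58 in knockout and 11.51 to 11.58 in wild type samples. Ndufab1 differed by 0.0025 (SE 0.058) and by 0.02 on its other probe set.

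Assembly factors went the other way in their means. Of 7 genes 5 had a higher knockout mean, beside 51.4% of all genes, with a median difference of 0.06, and 0 passed over all genes in limma. The count and median of the assembly factors were likewise added after seeing the data. Ndufaf7, a methyltransferase that acts early in assembly, had log2 signals of 9.72, 9.65, 9.73 and 9.57 in knockout and 9.60, 9.54, 9.52 and 9.46 in wild type samples. Wild type sample 1 lay above knockout sample 4, and the other samples of the genotypes did not cross. The difference was 0.14 (SE 0.059, limma adjusted p = 0.595, exact permutation p = 0.0571). Ndufaf4, which acts with Ndufaf3 on the matrix arm, differed by 0.10 and Ndufaf5, which hydroxylates Ndufs7, by 0.10. Ndufaf1, which helps to build the membrane arm, was the lowest at -0.09 (SE 0.067).

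The assembly factor means overlapped between genotypes and depended on single samples. Their mean signal was 9.75, 9.68, 9.66 and 9.54 in knockout and 9.64, 9.63, 9.62 and 9.57 in wild type samples. Knockout sample 4 was the lowest of all 8, and in it 0 of the 7 factors exceeded their own mean over the samples. Leaving out knockout sample 1 gave a median difference of 0.02, and leaving out knockout sample 4 gave 0.09. The 15 measured assembly factors with other names had a similar median: 12 had a higher mean and 3 a lower, with a median difference of 0.06 and 0 past the threshold over all genes in limma. Among them Lyrm2, a small mitochondrial protein of the LYR family, differed by 0.18 (SE 0.065, limma adjusted p = 0.469), and Bcs1l, best known as a complex III chaperone, by 0.12 (SE 0.063).

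Ndufa4 had the smallest difference of the 43, and Ndufa4l2 a lower knockout mean. For Ndufa4 the mean log2 signal was 13.64 in both genotypes (SD 0.069 in knockout and 0.051 in wild type, n = 4 each), and the difference of 0.00025 (SE 0.058) had a 95% interval from -0.13 to 0.13. For Ndufa4l2 it was 8.76 in knockout and 8.87 in wild type samples (SD 0.043 and 0.097, n = 4 each), a difference of -0.10 (SE 0.062, limma adjusted p = 0.742). Of the membrane arm core in mitochondrial DNA, ND3 alone was named by a single symbol here, and its pair of probe sets differed by -0.05 and -0.09.

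**Figure D3:**
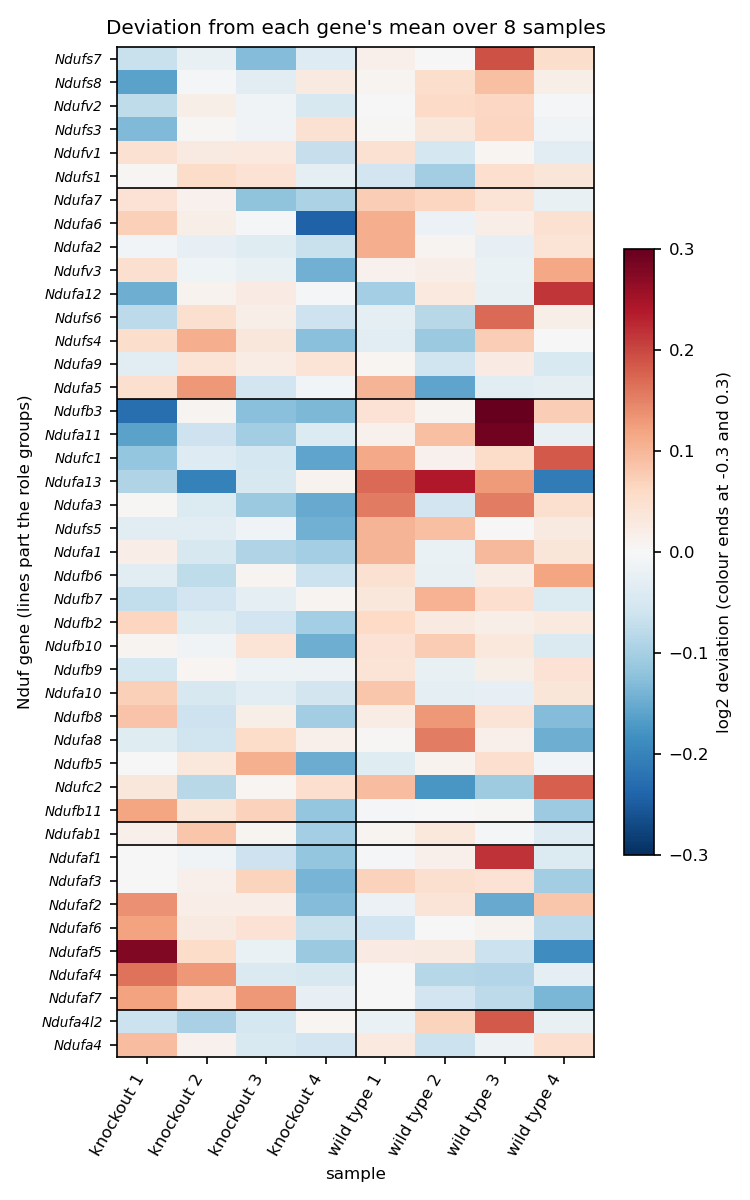
Colour shows each gene's log2 deviation from its own mean over the 8 samples (red higher, blue lower, ending at -0.3 and 0.3), with samples in columns and genes in rows parted by role. The membrane arm rows are mostly blue in the knockout columns and red in the wild type columns, while the column of knockout sample 4 is blue in most rows, assembly factors included.

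Across samples the members varied together weakly. With genotype means removed, the mean correlation over all pairs of Nduf genes was 0.118 (8 samples), beside 0.0090 over all pairs of genes, and 60.2% of the 903 pairs were positive. It was 0.449 among the assembly factors, 0.233 in the matrix arm core, 0.160 among matrix arm accessory genes and 0.074 in the membrane arm, against 0.780 for 9 slow fibre genes. All genes on an array share its RNA and hybridisation, and these values are descriptions. The median SD of a member was 0.071 in knockout and 0.058 in wild type samples on the log2 scale, below the 0.096 and 0.094 of all genes.

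Knockout sample 4 carried much of the spread within the knockout group. Of the 43 members, 17 had their lowest value there, 8 in knockout sample 1 and 0 in wild type sample 1, and 8 of 43 exceeded their own mean in knockout sample 4 where 18 to 23 did in the other knockout samples. The mean signal of all 43 was 11.49, 11.48, 11.47 and 11.41 in knockout and 11.52, 11.49, 11.53 and 11.48 in wild type samples. The genotypes overlapped, since wild type sample 4 lay just under knockout sample 1. The array of knockout sample 4 also stood apart over all genes. Its mean log2 signal over all genes was 8.25, against 8.22 to 8.23 in the other samples, and its median of 7.77 was the highest. Its upper quartile of 9.28 was lower than that of every other sample except wild type sample 4 (9.24). The part of these array-wide differences in its low Nduf values was not tested.

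Means of several fibre type and cell marker lists lay to one side in knockout samples, 0 genes of these lists passed over all genes in limma, and their part in the differences above was not tested. All 9 muscle fibre markers had log2 signals of at least 13.97, above the upper quartile of every array (9.59 at most), and 9 of 9 had a slightly lower knockout mean (median -0.02), with Ttn (-0.07) and Acta1 (-0.04) of smallest p. The mean of 9 slow fibre genes was 10.73, 11.10, 11.38 and 11.20 in knockout and 11.37, 11.75, 11.76 and 11.46 in wild type samples, with 8 of 9 genes lower and Casq2, named after its value was seen, higher; Tnnc1 (-0.76) and Myl3 (-0.61) had the smallest p. Macrophage markers had higher means in 9 of 9 genes, at 8.68 to 9.06 in knockout and 8.35 to 8.75 in wild type samples, with Lyve1 (0.50) and Adgre1 (0.40) of smallest p. Fibroblast markers were higher in 7 of 7 (10.71 to 11.10 against 10.57 to 10.88), with Col3a1 (0.44) and Fn1 (0.42) of smallest p. Tendon markers were lower in 6 of 6 (8.93 to 9.34 against 9.17 to 9.54), with Fmod (-0.28) and Thbs4 (-0.28) of smallest p, and Schwann cell markers in 3 of 3 (8.74 to 9.08 against 8.99 to 9.39), with Mbp (-0.29) and Sox10 (-0.13) of smallest p. Pericyte and smooth muscle markers were higher in 2 of 4 (10.45 to 10.77 against 10.41 to 10.63), with Acta2 (0.46) and Myh11 (0.22) of smallest p. Adipocyte markers were higher in 3 of 6 and spread widely in wild type samples (8.97 to 9.32 against 8.21 to 10.07), with Plin1 (-0.24) and Fabp4 (0.05) of smallest p. Endothelial markers were lower in 3 of 4 (10.52 to 10.86 against 10.60 to 10.75), with Tek (0.12) and Pecam1 (-0.03) of smallest p. Of the short lists, the brown adipocyte genes Cidea (0.14) and Ucp1 (0.01) had higher means, and the cardiac genes Myh6 (-0.17) and Nppa (-0.04) and the red cell gene Alas2 (-0.08) lower. The genotypes overlapped in each list mean given here by its range or by sample.

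**Figure D4:**
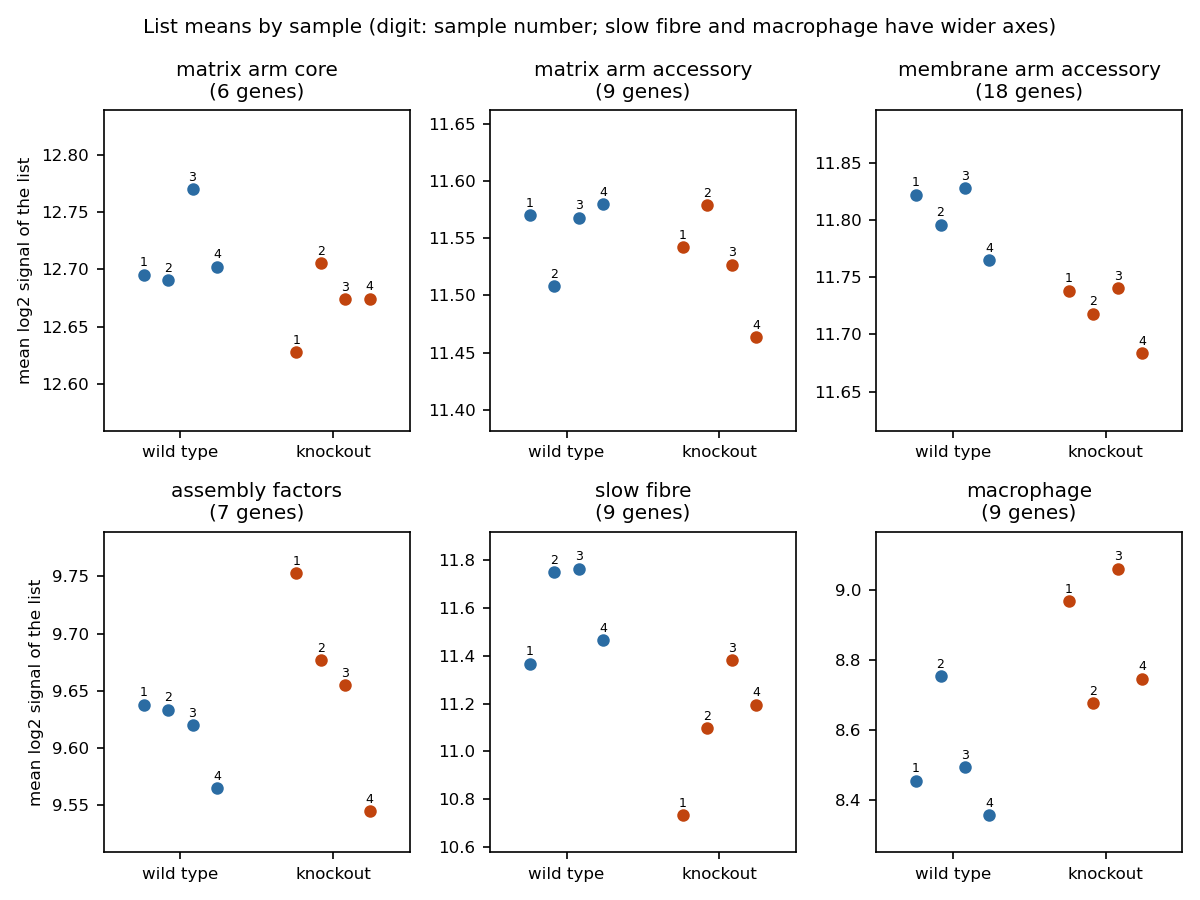
Each point is the mean log2 signal of a list in a sample, numbered by sample; the 4 complex I panels share 1 axis span and the slow fibre and macrophage panels are wider. The membrane arm panel is the only 1 of the 6 in which no knockout sample reaches the wild type samples (11.74 at most against 11.76 at least). The means of complex IV and of the genes that feed or balance the NADH pool, not drawn here, did not overlap either.

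Genes of the other complexes were set beside the Nduf genes as a description, with no test between complexes. Complex IV had 13 of 14 genes lower (median -0.08), with Cox6a2, the muscle form of a cytochrome oxidase subunit, at -0.33 and Cox8b at -0.19. Its mean signal, like that of the membrane arm, did not overlap between genotypes (11.77 to 11.80 in knockout and 11.86 to 11.90 in wild type samples). Complex III had 11 of 14 lower (median -0.06), with Uqcc3, an assembly factor, at -0.20 and the small subunit Uqcr11 at -0.21. This list mixed subunits with assembly factors, and its 3 higher genes, Uqcc1, Ttc19 and Lyrm7, were all assembly factors. Complex V had 9 of 15 lower (median -0.02), with Atp5k at 0.15 and Atp5g2 at -0.17. Complex II had 3 of 8 lower (median 0.04), with the iron-sulfur subunit Sdhb at -0.14 and the assembly factor Sdhaf3 at 0.13. This list also mixed subunits with the assembly factors Sdhaf1 to Sdhaf4. Its other subunits Sdha, Sdhc and Sdhd differed by 0.0015, 0.11 and -0.02. In each of these lists 0 genes passed over all genes in limma. At an unadjusted p under 0.05 in limma, 3 genes of complex IV and 3 of complex III were lower (21.4% each, beside 3.18% of all genes) and 0 higher. In complex II 1 was lower and 0 higher, and in complex V 0 were lower and 1 higher. The 34 measured complex I subunits had 26 lower and a median of -0.06. The PGC-1 family and its partners, regulators of oxidative genes, had 7 of 14 lower (median -0.0028), with the oestrogen-related receptor Esrrg at -0.18 and its corepressor Nrip1 at -0.19, and 0 passed.

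**Figure D5:**
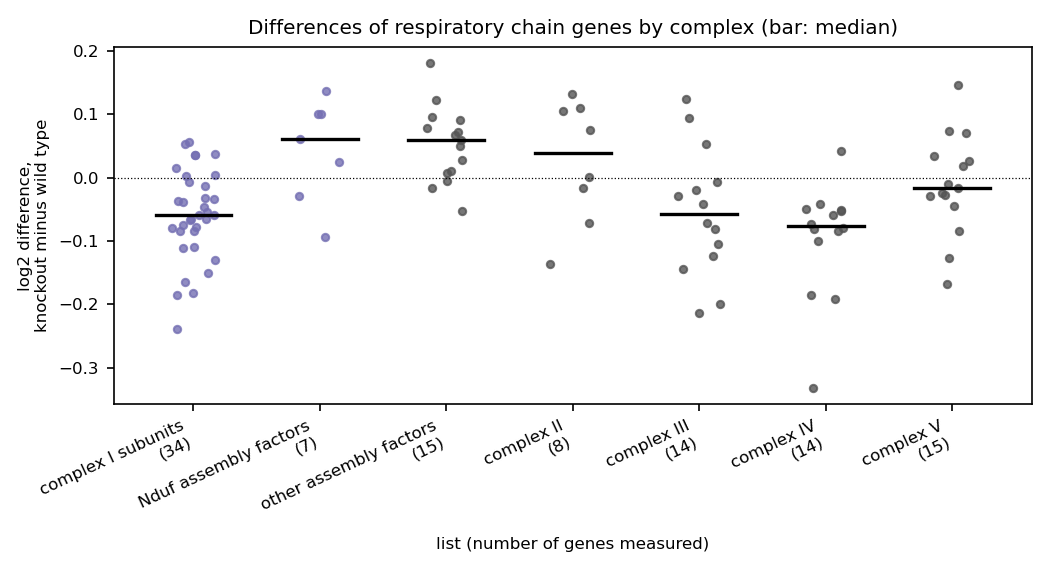
Points are single genes, placed by their log2 difference (knockout minus wild type), grouped by complex, with a bar at each median. The medians of complex I subunits (-0.06), complex III (-0.06) and complex IV (-0.08) lie below 0. Those of both assembly factor lists (0.06 each) and complex II (0.04) lie above it. The complex II and complex III lists hold assembly factors as well as subunits.

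The members that hold the promoter strings shown above were spread over the range of the rest. The 7 genes with AAGATGGC had a median difference of -0.04 and 5 of 7 were lower, running from -0.18 for Ndufc1 to 0.04 for Ndufa9. The 8 genes with the NRF1 motif had a median of -0.02 and 5 of 8 were lower, running from -0.19 for Ndufa11 to 0.10 for Ndufaf4. All 43 had a median of -0.05 with 29 lower. No test was made between genes with and without a string.

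The targeted gene followed the labels: Hdac5 had log2 signals of 8.31 to 8.39 in the knockout samples and 9.76 to 9.94 in the wild type samples. Arrays correlated at 0.988 to 0.995 with each other, no pair was identical, and array medians ran from 7.69 to 7.77.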

How the data were processed

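The values analysed are 1 log2 signal per probe set and array for 35556 probe sets and 8 arrays, as deposited by the authors, who used Affymetrix Expression Console version 4.0 per the submitters' processing notes. The sources used here do not give the background correction, summarisation or normalization; the log2 scale was read from the values. Of the probe sets, 21789 had 1 symbol in the platform annotation, 1621 several and 12146 were not listed. The brightest probe set per gene left 19938 genes; all 43 Nduf genes lay above the median gene. Knockout minus wild type was fitted on all genes with limma 3.58.1 in R 4.3.3 (lmFit, eBayes, genotype as the only term), with Benjamini-Hochberg adjustment over all genes and a threshold of 0.05. The script was tested on simulated data. Exact 2-sided permutation tests used the 8 samples of a gene. Plots used matplotlib 3.10.9 in Python 3.11.15. The number of arrays limits the precision.

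By rule, the 8 members of smallest p are given by sample, the highest and lowest member of each role group is named, and the 2 genes of smallest p are named from each other list. Members, lists and rules were chosen with earlier results of these data known. For 5 factors 10 promoter strings were searched, and all are reported. Alternatives were quantile normalization, median centring, a filter on dim genes, other probe set rules, other variance models, array weights, a replicate block and left-out samples.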

Additional observations from a re-analysis of the deposited data

Results flagged for a closer look

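Of 96 groups of 4 samples looked at (43 genes and 5 list means in each genotype), 7 held a sample far from the other 3 by Dixon's gap measure; chance gives about 1 in 20. Wild type sample 4 was low for Ndufb11 (11.34, others 11.45 to 11.46) and for Ndufaf3 (9.10, others 9.25 to 9.28). Knockout sample 1 was low for Ndufa12 (11.72, others 11.87 to 11.89) and high for Ndufa10 (12.91, others 12.79 to 12.81). Knockout sample 4 was low for Ndufv1 (12.08, others 12.18 to 12.19). The matrix arm core mean was high in wild type sample 3 (12.77, others 12.69 to 12.70), and the matrix arm accessory mean was low in wild type sample 2 (11.51, others 11.57 to 11.58).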

How the results depend on the processing

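The count of Nduf genes past the threshold was 0 under all 17 alternatives in limma. The smallest member adjusted p was 0.166 (trended, robust eBayes). With all samples, 4 members were lower and 1 higher at an unadjusted p under 0.05. The 8 genes given by sample kept their direction throughout. The number lower at an unadjusted p under 0.05 was 7 with trended, robust eBayes and 2 to 5 with single samples left out; the number higher was 0 to 1 with single samples left out and 0 with knockout 1 and wild type 4 both removed. The number with full separation was 4 to 9 with single samples left out and 12 with that pair removed, where fewer samples make separation easier. It was 3 with each array centred on its median, 3 with the dimmest probe set of each gene and 6 with quantile normalization. The median difference ran from -0.06 to -0.02, the membrane arm count from 14 to 17 of 18 and its median from -0.09 to -0.06, and the assembly factor count from 4 to 6 of 7. With that pair removed the assembly factor median was 0.014. With the replicate block, which rests on a shared number alone, the median difference was -0.05 and 0 members passed; same-numbered samples correlated at 0.338, -0.115, -0.153 and 0.340 in their deviations, 2 of 4 best with their own number, and 30 of all genes passed with the block against 13 without. The counts and medians of the membrane arm and assembly factors were added after seeing the data. All 43 genes lay above the median gene in mean signal.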

Other observations

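Among genes that feed or balance the NADH pool, Nnt, the transhydrogenase that links NADH to NADPH, varied most. Its log2 signal was 11.18, 11.29, 10.28 and 11.95 in knockout and 11.99, 11.83, 11.50 and 11.89 in wild type samples, a difference of -0.63 (SE 0.260, limma adjusted p = 0.566). Knockout sample 3 was the lowest and knockout sample 4 lay within the wild type range. Coq7, a hydroxylase of ubiquinone synthesis, was lower in every knockout sample by a narrow margin (9.98, 10.15, 10.01 and 10.12 against 10.33, 10.26, 10.59 and 10.15). Knockout sample 2 (10.1507) lay just under wild type sample 4 (10.1533). The Coq7 difference was -0.27 (SE 0.088, limma adjusted p = 0.432). Of the 17 genes in this list, 9 had a lower mean and 0 passed over all genes in limma; the smallest unadjusted p was that of Coq7 (0.0095). The list's mean signal was 11.36 to 11.42 in knockout and 11.42 to 11.48 in wild type samples, with no overlap by a narrow margin.

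The 2 probe sets that carry both Ndufb4 and Ndufb4b, and so name no single gene, differed by -0.0097 and 0.00053 between the genotypes.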
